A study of Homo sapiens with 27 samples.

Results

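The genes of LIF and interleukin-6 family signalling were followed in MCF10DCIS.com cells that had received calcium oxalate crystals and in untreated cells. The genes were taken by symbol as a listed set of 10 among the 60683 genes of the deposited tables: the ligands LIF, IL6, IL11 and CLCF1, the receptor chains LIFR, OSMR, IL6R and IL6ST, and the signalling genes SOCS3 and STAT3. The rule uses symbols only, but the set was proposed with earlier results of these data known. MCF10DCIS.com is a human breast epithelial line of the MCF10A lineage that forms lesions like ductal carcinoma in situ in mice, and a single line stands for the disease here. Polyadenylated RNA was sequenced from 27 libraries in 6 groups: COM (plates of calcium oxalate monohydrate), DB (dumbbells of the dihydrate), SPH (dihydrate spheres), TK (thick dihydrate bipyramids) and TN (thin dihydrate bipyramids) with 4 libraries each, and Control, cells without crystals, with 7. Every form was added at 0.1 mg/mL to flasks seeded with 500000 cells 6 h earlier. No source used here gives how long the cells then stayed with the crystals.

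Cytokines of this family signal through the shared receptor chain gp130, encoded by IL6ST. LIF joins gp130 to the LIF receptor, oncostatin M to its own receptor OSMR or to LIFR, and CLCF1 acts through a receptor that also contains LIFR, while IL-6 and IL-11 bind first to IL6R and IL11RA. The assembled receptor activates JAK kinases, which phosphorylate the transcription factor STAT3. SOCS3 is a STAT3 target gene whose protein binds gp130 and JAKs and damps the signal.

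Library totals ran between 13115669 and 38672521 counts. Per the serial numbers in the deposited names the libraries form 3 sets. Set 1 holds, for COM, DB, SPH, TN and Control, libraries A and B, set 2 holds the C libraries of those 4 forms, all 4 TK libraries and Control C to F, and set 3 holds the D libraries of the 4 forms and Control G. What a set stands for is not stated in the labels. TK was compared with Control in effect within set 2, and every fold change below comes from a fit with a term for the set. TN C has a mean fragment length of 297.0 nt, against at most 243.2 nt in the other libraries of set 2, so its place in that set is uncertain. With TN C placed in set 1, the calls against Control of CLCF1 with TN (0.36, adjusted p = 0.23) and OSMR with DB (0.26, adjusted p = 0.051) were lost, IL11 with TN was at -1.12 in place of -0.76, and every other call of a member against Control was kept. TN B carries liver transcripts, with a summed level of 1010 TPM over 8 liver markers. In bulk RNA, fewer expressing cells and less RNA per cell cannot be told apart. The 8 basal epithelial markers all averaged over 1 TPM in each group, and of the 6 leukocyte markers PTPRC, CD3E and MS4A1 were at or near 0. LYZ was at 50.9 TPM in TN B and at most 2.1 TPM elsewhere. The other 2, CD68 and CD14, were detected in every library, and CD68 averaged 14.2 CPM in COM, 12.6 in DB, 7.53 in SPH, 4.32 in TK and 7.67 in TN, against 7.99 CPM in Control. Its part in the results below was not tested. Whether the libraries of a group are separate cultures is not in the labels, so the p-values speak only of the spread among these samples, which may be technical.

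LIF was by far the most abundant member. Per transcript length, as TPM, the deposited length-scaled level, averaged over all 27 libraries, the order was LIF at 194, STAT3 at 46.3, OSMR at 31 and IL6ST at 15, followed by SOCS3 at 3.39, CLCF1 at 3.38, IL11 at 2.7, IL6R at 1.89, LIFR at 0.816 and IL6 at 0.286. LIF, at 125 to 297 TPM, overlapped no other member, and the lowest STAT3 library (34.5 TPM) lay below the highest OSMR library (38.7 TPM). SOCS3, CLCF1, IL11 and IL6R overlapped each other in their ranges. The ligand LIF had a level above that of every receptor chain in all 27 libraries, and its own receptor LIFR stood at 0.5 to 1.29 TPM.

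**Figure D1:**
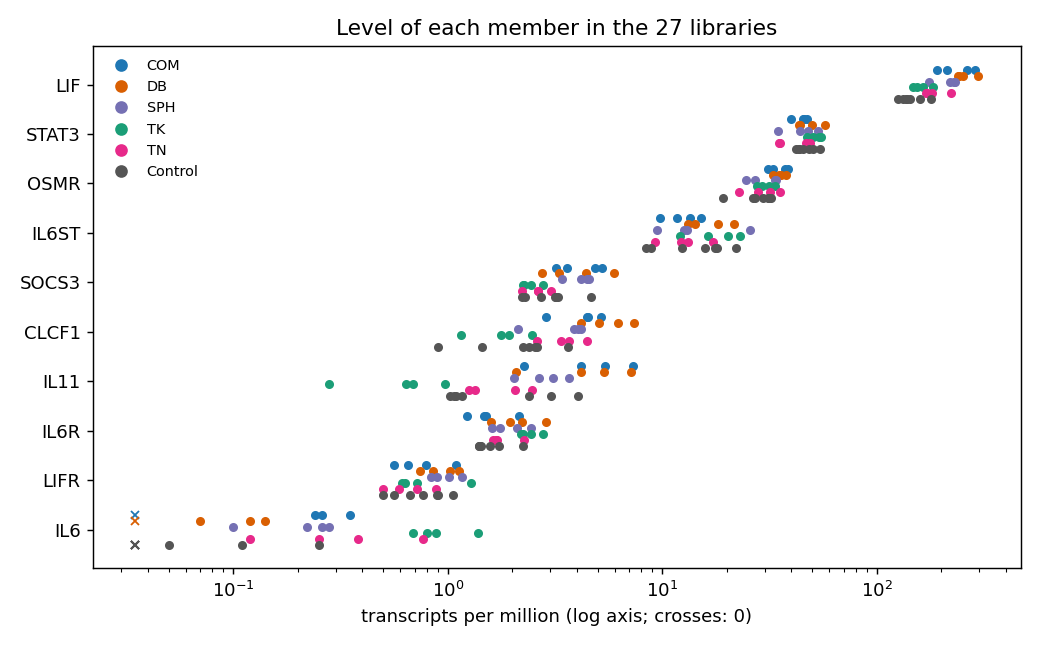
Level of each member in TPM on a log axis, 1 point per library, with the groups stacked from COM at the top to Control at the bottom of each row and crosses for libraries at 0. LIF lies between 125 and 297 TPM, and IL6 at or below 1.39 TPM.

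Against Control, edgeR's quasi-likelihood test with Benjamini-Hochberg adjustment over 16173 genes could be run for 9 of the 10 members, since IL6 had too few counts. At an adjusted p under 0.05, 3 of the 9 members were called higher with COM (LIF, IL11 and CLCF1), where 3.94% of all genes tested were called higher and 2.42% lower. With DB 6 were called higher (LIF, IL11, CLCF1, OSMR, IL6R and IL6ST), beside 5.92% higher and 4.1% lower of all genes. With SPH 1 was called higher (LIF), beside 0.0804% higher and 0.0309% lower. With TK 1 was called higher (IL6R) and 1 lower (IL11), beside 8.04% higher and 7.32% lower. With TN 4 were called higher (LIF, CLCF1, IL6R and IL6ST) and 1 lower (IL11), beside 6.83% higher and 4.88% lower. The median log2 fold change of the 9 members was 0.31 with COM, 0.39 with DB, 0.16 with SPH, -0.0024 with TK and 0.21 with TN, and the median of all genes lay between -0.016 and -0.0033. Several of these counts depend on the set term: without it, 3 members were called with DB and 1 with TN. Without TN B, the TN calls of LIF, IL11, IL6R and IL6ST held and that of CLCF1 was lost. A joint test for any difference among the 6 groups called 5 of 9 members (LIF, IL11, CLCF1, IL6R and IL6ST), and 23.3% of all genes.

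**Figure D2:**
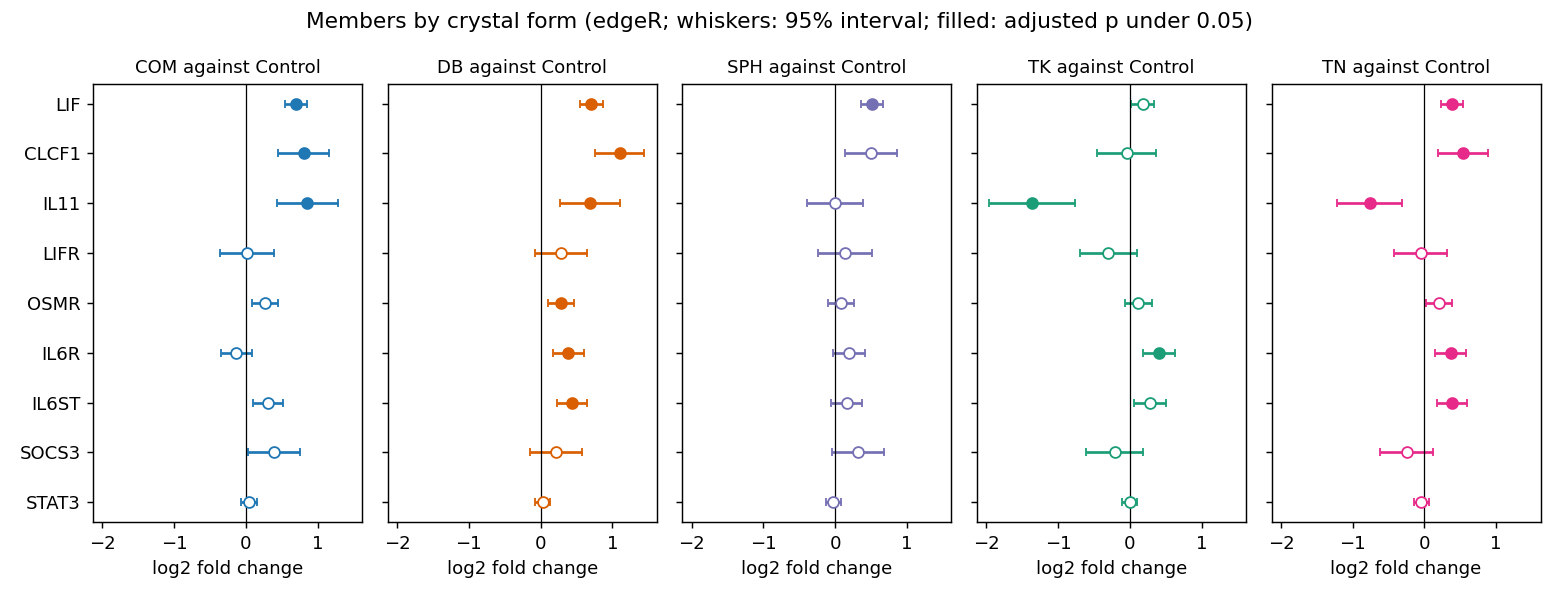
Log2 fold change of the 9 tested members with each crystal form against Control, with 95% intervals of the edgeR fit and filled points for an adjusted p under 0.05. LIF lies to the right of 0 in every panel, and IL11 is at 0.86 with COM and at -1.36 with TK.

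LIF (ENSG00000128342, chromosome 22, 30240447 to 30246851, minus strand, GRCh38) encodes leukaemia inhibitory factor. Its level in CPM (counts scaled to a common library size) was 716, 836, 540 and 779 in COM libraries A to D and 697, 712, 644 and 836 in DB libraries A to D. In SPH it was 602, 611, 611 and 690 CPM, in TK 440, 480, 444 and 437 CPM, and in TN 587, 553, 515 and 652 CPM. The 7 Control libraries had a lowest value of 377, a median of 400 and a highest of 540 CPM, the last being Control G of set 3. All 4 DB and all 4 SPH libraries lay above every Control library, as did 3 of 4 with COM and 3 of 4 with TN, while all 4 TK libraries lay within the Control range. Among the Control libraries of their own set, at 377 to 453 CPM, only TK B lay above the highest.

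The log2 fold change of LIF was 0.70 ± 0.076 (SE) with COM (edgeR adjusted p = 1.6e-06) and 0.71 ± 0.075 with DB (adjusted p = 1.1e-06), equal to 1.62-fold and 1.64-fold. It was 0.51 ± 0.075 with SPH (adjusted p = 0.0011) and 0.39 ± 0.076 with TN (adjusted p = 0.0016). With TK it was 0.18 ± 0.077 (95% interval 0.019 to 0.34, adjusted p = 0.12). LIF was the only member called with SPH, the form with the fewest called genes. Within sets 1, 2 and 3 the difference in mean log2 CPM was 0.98, 0.40 and 0.53 for COM, 0.84, 0.66 and 0.63 for DB, 0.63, 0.58 and 0.35 for SPH, and 0.54, 0.34 and 0.27 for TN. The direction was the same in every set. The SPH call was lost without SPH C (0.46, adjusted p = 0.057), and TK was called without Control E (0.24, adjusted p = 0.045). LIF shares 92 exon bases with the antisense gene LIF-AS1 and 175 with AC004264.1, and no source used here gives the strand setting of the counting.

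CLCF1 (ENSG00000175505, chromosome 11, 67364168 to 67374177, minus strand) encodes cardiotrophin-like cytokine factor 1. It had 6.26, 6.44, 3.31 and 5.57 CPM in COM and 7.27, 6.12, 4.51 and 8.58 CPM in DB. In SPH it had 5.46, 4.59, 2.39 and 5.2 CPM, in TK 2.1, 2.05, 2.35 and 1.27 CPM, and in TN 4.51, 4.78, 3.08 and 5.52 CPM. Control libraries ran between 1.16 and 3.89 CPM with a median of 2.9. All 4 DB libraries lay above every Control library, and 3 of 4 did so with COM, SPH and TN, the C library of set 2 being the one that did not. The log2 fold change was 0.80 ± 0.17 with COM (edgeR adjusted p = 0.0043), 1.10 ± 0.17 with DB (adjusted p = 0.00019) and 0.54 ± 0.17 with TN (adjusted p = 0.037). With SPH it was 0.50 ± 0.18 (95% interval 0.14 to 0.86, adjusted p = 0.54), and with TK -0.043 ± 0.20 (95% interval -0.45 to 0.36, adjusted p = 0.91). Within sets 1, 2 and 3 the difference in mean log2 CPM was 1, 0.76 and 0.51 for COM, 1.07, 1.20 and 1.12 for DB, and 0.56, 0.66 and 0.50 for TN. With no set term the TN call was lost (0.75, adjusted p = 0.099). It was also lost without any 1 of the 4 TN libraries and without Control A, B, F or G, at 0.50 to 0.57 with adjusted p between 0.051 and 0.091. CLCF1 shares 61 exon bases with AP003419.1 on the same strand, which had 80 to 628 counts per library, against 16 to 277 for CLCF1. How reads over the shared bases were divided was not tested.

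With both bipyramid forms IL11 was called lower, while IL6 was higher but not called after adjustment (exact permutation test, adjusted p = 0.0714 for each). The promoter sequence of both is shown, from RefSeq on GRCh38.p14. Of the 10 members, 8 were matched in the RefSeq promoter table. LIF and CLCF1, both called higher with TN, were not in it, so their promoters were not searched. Each run is the 250 bases before the RefSeq start, 5′ to 3′ on the gene's strand, and capitals mark a motif match. IL11 is at chr19:55370464-55370713 on the minus strand, and its capitals, 96 to 90 bases before the start, match the AP-1 motif TGANTCA. IL6 is at chr7:22726950-22727199 on the plus strand, and its capitals, 73 to 64 bases before the start, match the NF-kB consensus. The RefSeq start of IL6 lies inside the gene as GENCODE draws it, whose bounds are given below, while that of IL11 is at its edge.
IL11: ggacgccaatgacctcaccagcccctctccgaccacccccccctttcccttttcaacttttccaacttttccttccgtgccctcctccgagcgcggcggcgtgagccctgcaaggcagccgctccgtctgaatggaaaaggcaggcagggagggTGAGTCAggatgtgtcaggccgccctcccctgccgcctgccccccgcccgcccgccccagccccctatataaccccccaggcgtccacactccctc
IL6: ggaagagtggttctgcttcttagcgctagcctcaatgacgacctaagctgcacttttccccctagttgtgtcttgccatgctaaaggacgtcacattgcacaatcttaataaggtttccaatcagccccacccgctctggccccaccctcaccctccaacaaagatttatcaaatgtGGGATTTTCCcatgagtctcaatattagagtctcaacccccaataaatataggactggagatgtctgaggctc
The search covered both strands and 4 motifs, which did not overlap one another in these windows. Of 35116 RefSeq promoters of the same length, 6.57% hold TGANTCA, 9.96% the NF-kB consensus, 6.57% the STAT motif TTCNNNGAA and 1.65% the CRE motif TGACGTCA. Among the 8 matched members, AP-1 was found in 1 (IL11), NF-kB in 2 (IL6 and IL6ST), the STAT motif in 1 (LIFR, at alternative starts) and CRE in 0. A match is a description of letters and not a measured binding site.

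IL11 (ENSG00000095752, chromosome 19, 55364389 to 55370463, minus strand) encodes interleukin-11, a secreted cytokine that binds IL11RA. It had 9.48, 10.2, 2.77 and 6.42 CPM in COM and 6.23, 7.07, 2.8 and 9.23 CPM in DB. In SPH it had 5.09, 4.21, 2.13 and 3.74 CPM, in TK 1.05, 0.663, 0.241 and 0.712 CPM, and in TN 1.84, 2.95, 1.37 and 2.72 CPM. Control libraries differed by set, with 4.6 and 4.66 CPM in set 1, 1.29 to 1.81 CPM in set 2 and 6.15 CPM in set 3. All 4 TK libraries lay below the lowest Control library of their own set, and every COM and DB library lay above the Control libraries of its set. In sets 1 and 3 the TN libraries lay below the Control libraries, while TN C lay within the Control range of set 2.

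The log2 fold change of IL11 was 0.86 ± 0.21 with COM (edgeR adjusted p = 0.011) and 0.69 ± 0.21 with DB (adjusted p = 0.033). It was -1.36 ± 0.29 with TK (adjusted p = 0.0022), or 0.389 times the Control level, and -0.76 ± 0.22 with TN (adjusted p = 0.024), or 0.591 times. With SPH it was 0.0014 ± 0.19 (95% interval -0.39 to 0.39, adjusted p = 0.99). IL11 was the only member called higher with some forms and lower with others. Within sets 1, 2 and 3 the difference in mean log2 CPM was 1.07, 0.81 and 0.061 for COM, 0.51, 0.82 and 0.58 for DB, and -0.97, -0.17 and -1.15 for TN, and it was -1.25 for TK in set 2. Fitted within set 2 alone, TK stayed called (-1.19, adjusted p = 0.030). With no set term the calls with COM (1.19, adjusted p = 0.097), DB (1.02, adjusted p = 0.12) and TN (-0.52, adjusted p = 0.53) were lost, and TK was at -2.22 (adjusted p = 0.0051). Calls were lost with COM without COM A or B (0.75 to 0.78, adjusted p at most 0.058), with DB without Control A, Control F, DB B, DB C or DB D (0.56 to 0.72, adjusted p at most 0.16), and with TN without Control G (-0.63, adjusted p = 0.082) or TN A (-0.60, adjusted p = 0.14).

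IL6 (ENSG00000136244, chromosome 7, 22725884 to 22732002, plus strand) encodes interleukin-6 and was near the limit of detection. Its counts were 2, 0, 5 and 2 in COM, 0, 2, 1 and 1 in DB, and 2, 2, 1 and 1 in SPH. They were 7, 11, 5 and 6 in TK and 21, 6, 8 and 1 in TN, against at most 2 in any of the 7 Control libraries, 4 of which had 0. As levels, TK had 0.408, 0.663, 0.301 and 0.305 CPM and TN 0.584, 0.157, 0.228 and 0.0736 CPM, against at most 0.106 CPM in Control. All 4 TK libraries and 3 of 4 TN libraries lay above every Control library. A count of 0 allows up to 3 counts, or 0.0843 to 0.233 CPM in the 6 libraries at 0.

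Summed over libraries, IL6 had 29 counts in TK and 3 in the 4 Control libraries of set 2, a ratio of 10.3 per sequenced count (95% exact interval 3.18 to 52.6, counting error only). It had 36 counts in TN and 4 in all 7 Control libraries, a ratio of 10.9 (3.92 to 42.3), and 21 of the 36 came from TN A. In a 2-sided exact permutation test within sets, p was 0.0286 for TK and 0.0167 for TN, the smallest values these designs allow, and both became 0.0714 after Benjamini-Hochberg adjustment over the 5 forms. For COM and SPH the exact p was 0.0833 each and for DB 0.367, and for COM it was 0.033 without COM B. Without TN A, the mean difference for TN dropped to 0.133 CPM, against 0.242 CPM with it, and the exact p was 0.033. Without TN C the exact p for TN was 0.17, the smallest value that design allows. Without Control A or Control B, with a single Control library left in set 1, it was 0.23. The mean differences in these fits were 0.261, 0.25 and 0.234 CPM, so their p-values do not show a weaker difference. edgeR without the filter on low counts gave a log2 fold change of 3.49 ± 0.83 with TK (adjusted p = 0.0011) and 3.26 ± 0.82 with TN (adjusted p = 0.0031). Within set 2 edgeR gave 3.17 ± 0.80 with TK (adjusted p = 0.017) and, for TN C alone, 2.32 ± 1.06. IL6 passed the filter within set 2 only through TK, where it is high, so that TK value is not separate support. IL6 shares 46 exon bases with STEAP1B on the other strand.

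**Figure D3:**
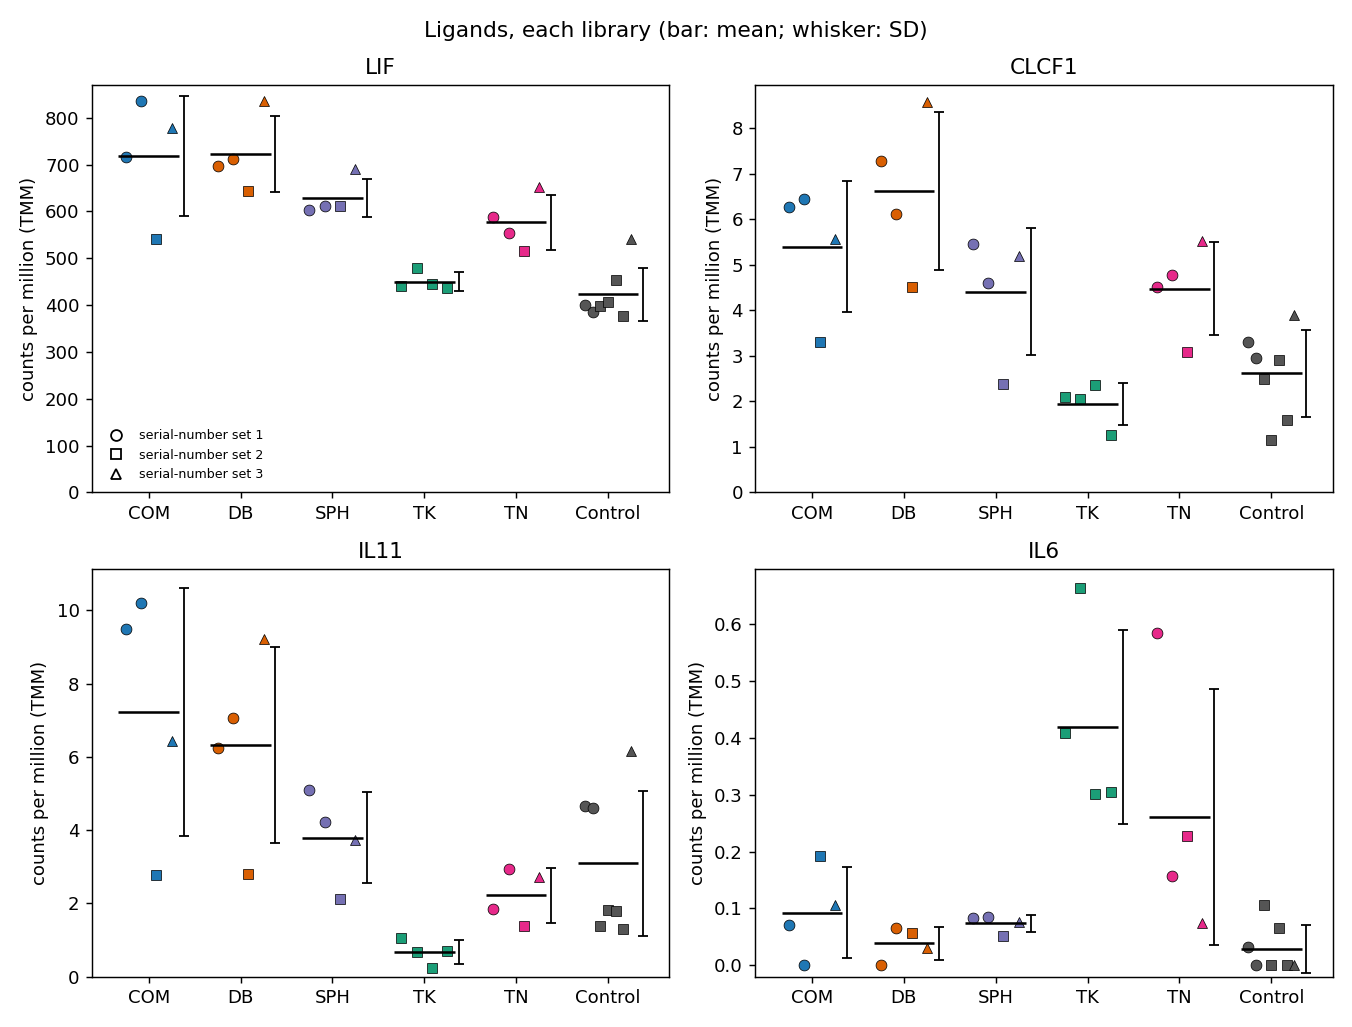
CPM of LIF, CLCF1, IL11 and IL6 in each of 27 libraries by group, with the mean as a bar, the SD as a whisker and the serial-number set as the symbol. TK libraries are the lowest for IL11, between 0.241 and 1.05 CPM, and the highest as a group for IL6, between 0.301 and 0.663 CPM.

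IL6R (ENSG00000160712, chromosome 1, 154405193 to 154469450, plus strand) encodes the binding chain for interleukin-6. It had 8.65, 7.53, 11.6 and 8.17 CPM in DB, 9.08, 9.89, 9.46 and 10.1 CPM in TK and 9.3, 8.14, 9.82 and 7.72 CPM in TN. It had 6.55, 5.98, 6.63 and 5.62 CPM in COM and 7.94, 8.2, 6.76 and 8.1 CPM in SPH, and Control libraries ran between 6 and 7.6 CPM with a median of 7.24. In CPM, all 4 TK and all 4 TN libraries lay above every Control library, as did 3 of 4 with DB and with SPH, and 2 of 4 COM libraries lay below every one. As TPM both bipyramid forms overlapped Control, with 2.2 to 2.78 in TK and 1.63 to 2.27 in TN, against 1.4 to 2.25 in Control. The mean TPM was 2.42 in TK, 1.82 in TN and 1.6 in Control. The log2 fold change was 0.39 ± 0.10 with DB (edgeR adjusted p = 0.017), 0.40 ± 0.11 with TK (adjusted p = 0.012) and 0.36 ± 0.10 with TN (adjusted p = 0.020). It was -0.13 ± 0.11 with COM (95% interval -0.35 to 0.088, adjusted p = 0.54) and 0.19 ± 0.11 with SPH (95% interval -0.028 to 0.41, adjusted p = 0.84). Within sets 1, 2 and 3 the difference in mean log2 CPM was 0.29, 0.72 and 0.15 for DB and 0.40, 0.48 and 0.069 for TN, and it was 0.45 for TK in set 2. With no set term the TN call was lost (0.33, adjusted p = 0.072). The DB call was lost without DB C (0.25, adjusted p = 0.14), and the TN call without Control B, TN A or TN C (0.32 to 0.33, adjusted p at most 0.10).

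IL6ST (ENSG00000134352, chromosome 5, 55935095 to 55994993, minus strand) encodes gp130. It had 103, 105, 95.9 and 79 CPM in DB, 106, 74.1, 120 and 72.2 CPM in TN and 83.7, 99, 93.8 and 102 CPM in TK, against 53 to 87.2 CPM with a median of 77.3 in Control. COM libraries ran between 73.5 and 101 CPM and SPH libraries between 70.9 and 88 CPM. All forms overlapped the Control range, with 3 of 4 libraries above it for DB and TK and 2 of 4 for TN and COM. As TPM, the mean was 12.5 in COM, 16.8 in DB, 15.2 in SPH, 17.9 in TK and 13 in TN, against 14.7 in Control. By TPM, COM and TN thus lay below Control, unlike by CPM. These means take no account of the set, and the cause of the difference was not tested. The log2 fold change was 0.44 ± 0.10 with DB (edgeR adjusted p = 0.0079) and 0.39 ± 0.10 with TN (adjusted p = 0.013). It was 0.31 ± 0.10 with COM (adjusted p = 0.077), 0.28 ± 0.11 with TK (adjusted p = 0.075) and 0.16 ± 0.10 with SPH (adjusted p = 0.90). Within sets 1, 2 and 3 the difference in mean log2 CPM was 0.40, 0.34 and 0.57 for DB and 0.17, 0.66 and 0.45 for TN. With no set term both calls were lost, at 0.37 for DB (adjusted p = 0.092) and 0.34 for TN (adjusted p = 0.15). The TN call was also lost without TN A or TN C (0.26 to 0.33, adjusted p at most 0.13). IL6ST was called with TK without Control B, TN B or TN C (0.29 to 0.32, adjusted p at most 0.037), and with COM without Control B or TN B (0.30 to 0.37, adjusted p at most 0.043). IL6ST shares 797 exon bases with the antisense gene AC008914.1, which had 0 counts in every library.

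OSMR (ENSG00000145623, chromosome 5, 38845858 to 38945596, plus strand) encodes the oncostatin M receptor. It had 126, 135, 112 and 123 CPM in DB, against 78.4 to 116 CPM with a median of 104 in Control, and 3 of 4 DB libraries lay above every Control library. The log2 fold change with DB was 0.28 ± 0.089 (edgeR adjusted p = 0.044), and the call was lost in 16 of the 27 fits that each left out 1 library (0.24 to 0.31, adjusted p 0.050 to 0.13). These were Control A, D, E, F and G, COM C, DB A, B and D, SPH C and D, all 4 TK libraries and TN D. With no set term the call was also lost (0.30, adjusted p = 0.051). With COM it was 0.27 ± 0.089 (adjusted p = 0.071), with TN 0.21 ± 0.088 (adjusted p = 0.13), with TK 0.12 ± 0.092 (adjusted p = 0.41) and with SPH 0.081 ± 0.090 (adjusted p = 0.96). Without TN B, OSMR was called with COM (0.26, adjusted p = 0.035) and TN (0.31, adjusted p = 0.017). OSMR shares 229 exon bases with RICTOR on the other strand. LIFR (ENSG00000113594, chromosome 5, 38474963 to 38608354, minus strand), the receptor for LIF, ran between 4.02 and 8.39 CPM over the 5 crystal forms and between 4.34 and 7.4 CPM in Control. Its log2 fold changes lay between -0.30 ± 0.19 with TK (95% interval -0.70 to 0.098) and 0.28 ± 0.18 with DB (95% interval -0.082 to 0.65), and it was called against Control with no form by edgeR (unadjusted p at least 0.12, adjusted p at least 0.32) or DESeq2. LIFR shares 629 exon bases with the antisense gene LIFR-AS1.

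SOCS3 (ENSG00000184557, chromosome 17, 78356778 to 78360077, minus strand), the feedback inhibitor, had 11.5, 11.2, 6.51 and 7.64 CPM in COM, 5.53, 9.24, 6.22 and 12.1 CPM in DB and 10.8, 8.16, 6.45 and 9.55 CPM in SPH. It had 4.89, 5.18, 4.7 and 4.22 CPM in TK and 5.4, 6.13, 5.4 and 6.4 CPM in TN, against 4.36 to 9.94 CPM with a median of 6.53 in Control. Every TK and TN library lay below every SPH and COM library, while DB overlapped TN. Sets were not matched in this, and SOCS3 was called in 0 of 10 pairs of crystal forms. Against Control the log2 fold change was 0.40 ± 0.18 with COM (edgeR adjusted p = 0.20), 0.22 ± 0.18 with DB (adjusted p = 0.47), 0.32 ± 0.18 with SPH (adjusted p = 0.84), -0.21 ± 0.19 with TK (adjusted p = 0.51) and -0.25 ± 0.18 with TN (adjusted p = 0.41). STAT3 (ENSG00000168610, chromosome 17, 42313324 to 42388568, minus strand) encodes the transcription factor that the receptors activate. It ran between 140 and 181 CPM over the 5 forms and between 152 and 178 CPM in Control. Its log2 fold changes lay between -0.046 ± 0.051 with TN and 0.043 ± 0.051 with COM. The 95% intervals of all 5 comparisons lay within -0.1515 to 0.149 (edgeR adjusted p at least 0.61). STAT3 phosphorylation was not measured here.

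**Figure D4:**
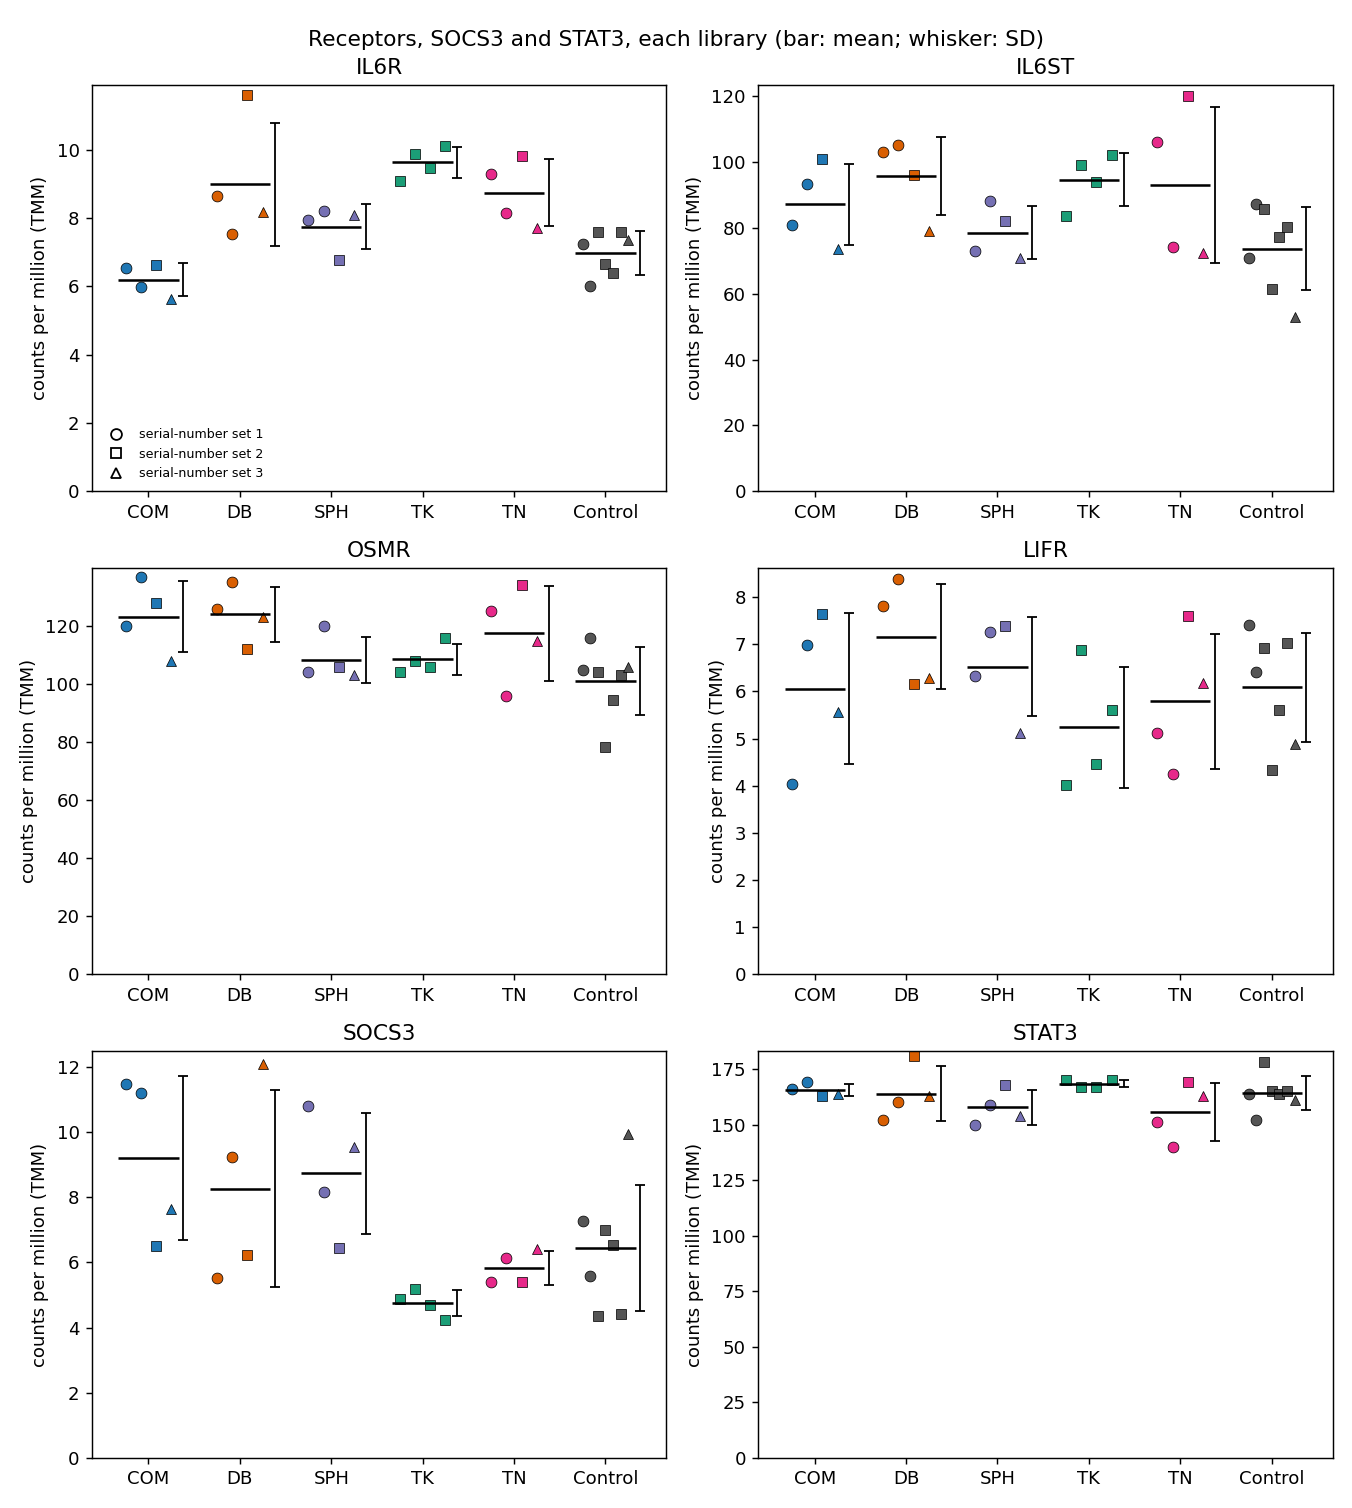
CPM of the 4 receptor chains, SOCS3 and STAT3 in each of 27 libraries by group, with the mean as a bar, the SD as a whisker and the serial-number set as the symbol. All 4 TK and all 4 TN libraries lie above every Control library for IL6R in CPM, though not in TPM, and STAT3 stays between 140 and 181 CPM.

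The forms were also compared with each other at the same dose, in 10 pairs with p-values adjusted over all genes and pairs. All 4 TK libraries are in set 2, where each other form has 1 library, so pairs with TK rest on the set term. Mean Control IL11 was 4.63, 1.56 and 6.15 CPM in sets 1, 2 and 3. No pair was fitted within a single set. Of 90 tests on the 9 members 16 were called, and of all 161730 tests 4.69%. IL11 was called in 6 pairs. It was lower in TK than in COM (log2 fold change -2.22 ± 0.31, edgeR adjusted p = 0.00015), DB (-2.05 ± 0.31, adjusted p = 0.00034) and SPH (-1.36 ± 0.32, adjusted p = 0.012), and lower in TN than in COM (-1.62 ± 0.23, adjusted p = 0.00023) and DB (-1.45 ± 0.23, adjusted p = 0.00065). It was also lower in SPH than in COM (-0.86 ± 0.23, adjusted p = 0.029), a call lost without COM A, COM B, SPH B or SPH D (-0.73 to -0.80, adjusted p at most 0.095), and the call between TK and SPH was lost without SPH C (-1.20, adjusted p = 0.052). LIF was lower in TK than in DB (-0.53 ± 0.093, adjusted p = 0.0013), COM (-0.52 ± 0.094, adjusted p = 0.0017) and SPH (-0.34 ± 0.093, adjusted p = 0.033), and lower in TN than in DB (-0.32 ± 0.084, adjusted p = 0.023) and COM (-0.31 ± 0.084, adjusted p = 0.028). Of the LIF calls, TK against SPH was lost in 9 of 27 fits that each left out 1 library (-0.26 to -0.33: Control C, COM D, DB B, SPH B, SPH C, TK A, TK C, TK D or TN A), TN against COM without COM A, COM B, TN B or TN D (-0.21 to -0.30), and TN against DB without DB D or TN B (both -0.31). With no set term, the LIF calls of TN against DB (-0.324, edgeR adjusted p = 0.11) and against COM (-0.315, adjusted p = 0.12) were lost. So was the IL11 call of SPH against COM (-0.91, adjusted p = 0.29). Both of these LIF calls were also lost without TN B and TN C together (-0.302 and -0.279, adjusted p = 0.11 and 0.14). CLCF1 was lower in TK than in DB (-1.15 ± 0.22, adjusted p = 0.0029) and COM (-0.85 ± 0.22, adjusted p = 0.026), the second lost without COM A, COM B, COM C or TK D (-0.66 to -0.86, adjusted p at most 0.10). IL6R was higher in DB, TK and TN than in COM, at 0.52 ± 0.12 for DB against COM, 0.54 ± 0.13 for TK against COM and 0.50 ± 0.12 for TN against COM (adjusted p = 0.0085, 0.015 and 0.012). TN and TK, which differ in thickness, were not called apart for any member. TN against TK was 0.21 ± 0.093 for LIF (95% interval 0.017 to 0.40) and 0.60 ± 0.32 for IL11 (-0.055 to 1.26). CLCF1 ran between 3.08 and 5.52 CPM in TN and between 1.27 and 2.35 CPM in TK. With no account of the set, the CPM of LIF, IL11, CLCF1 and SOCS3 did not overlap between TN and TK.

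Set together, the bipyramids (mean of TK and TN) against the rounded dihydrate forms (mean of DB and SPH) gave lower LIF (-0.33 ± 0.062, edgeR adjusted p = 0.00057), IL11 (-1.41 ± 0.20, adjusted p = 3.2e-05), CLCF1 (-0.55 ± 0.15, adjusted p = 0.0087) and SOCS3 (-0.50 ± 0.15, adjusted p = 0.020). These are 4 of 9 members called lower, where 9.45% of all genes were called lower and 10.3% higher. The other 5 were not called, with OSMR, IL6R, IL6ST and STAT3 between -0.026 and 0.095 and LIFR at -0.39 ± 0.15 (adjusted p = 0.075). The SOCS3 call was lost without TN A (-0.46, adjusted p = 0.055), and LIFR was called without Control D, DB C, TK B or TN C (-0.41 to -0.47, adjusted p at most 0.045).

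The wider pathway was counted on lists of the other ligands and receptors, signal transducers, inhibitors, known STAT3 target genes and the sheddases ADAM10 and ADAM17. Of 25 STAT3 target genes tested, 10 were called higher and 1 lower with COM (median log2 fold change 0.24), 9 higher and 2 lower with DB (0.23), 3 higher and 3 lower with TK (-0.031) and 7 higher and 2 lower with TN (0.13). With SPH (median 0.11) edgeR called 0 and DESeq2 2 higher, and 10 of 25 had an unadjusted p under 0.05, against 1046 of all 16173 genes. Over all genes the shares called higher and lower were 3.94% and 2.42% with COM, 5.92% and 4.1% with DB, 8.04% and 7.32% with TK and 6.83% and 4.88% with TN. Without the set term, 4 were called higher with COM, 6 higher and 1 lower with DB, 4 lower with TK and 4 higher with TN. ICAM1, a cell adhesion molecule also driven by NF-kB, was called with COM (0.77 ± 0.092, adjusted p = 6.5e-06) and DB (0.55 ± 0.092, adjusted p = 0.00046), and with TN at 0.30 ± 0.092 (adjusted p = 0.033), a call lost in 6 of 27 fits that left out 1 library. It had 284 to 340 CPM in COM and 228 to 338 CPM in DB, against 154 to 213 CPM in Control, and neither form overlapped Control. BCL2L1, which encodes the survival protein BCL-XL, was called with COM (0.38 ± 0.061), DB (0.31 ± 0.061) and TN (0.33 ± 0.061), at edgeR adjusted p of at most 0.0021. VEGFA, an angiogenic growth factor, was called with COM (0.26 ± 0.074), DB (0.42 ± 0.073) and TN (0.34 ± 0.074), at adjusted p of at most 0.035. HIF1A, the hypoxia-inducible factor subunit, was called with COM (0.36 ± 0.085), DB (0.31 ± 0.085), TK (0.25 ± 0.087) and TN (0.40 ± 0.084), at adjusted p of at most 0.047. Leaving out 1 library at a time, the VEGFA call with COM was lost in 15 of 27 fits, and that of HIF1A in 1 with COM, 4 with DB and 14 with TK.

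TIMP1, a metalloproteinase inhibitor, was called lower with TK (-1.12 ± 0.17, edgeR adjusted p = 0.00011), where it had 59.5 to 66 CPM, against 127 to 234 CPM in Control. It was also called lower with TN (-0.62 ± 0.16, adjusted p = 0.015), at 104 to 145 CPM, a call lost in 1 of 27 fits, without TN A (-0.52). LCN2, an iron-siderophore binding protein, was called higher with COM (0.73 ± 0.094), TK (0.62 ± 0.10) and TN (0.63 ± 0.094) at adjusted p of at most 0.00019, and with DB (0.31 ± 0.096, adjusted p = 0.039, lost in 7 of 27 fits). In Control it ran between 35.3 and 201 CPM, and without the set term the TK value was -0.70 (adjusted p = 0.40). Among 15 inhibitors, 2 were called higher and 1 lower with COM, DB and TN, and 1 higher and 2 lower with TK, counts to be read against the same shares of all genes. SOCS2, another SOCS family member, was called with COM (0.64 ± 0.086, adjusted p = 3.5e-05), DB (0.45 ± 0.087, adjusted p = 0.0018) and TN (0.40 ± 0.086, adjusted p = 0.0032). PTPRE, a receptor-type phosphatase, was called lower with TK (-0.58 ± 0.10, adjusted p = 0.00032), and with TN (-0.30 ± 0.092, adjusted p = 0.031, lost in 4 of 27 fits), and the STAT3 inhibitor PIAS3 was called lower with TK (-0.36 ± 0.079, adjusted p = 0.0027). The phosphatase PTPN1 was called with COM, DB, TK and TN at 0.23 to 0.30.

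Among 13 transducers, 1 was called higher with COM and with DB, 1 higher and 1 lower with TK, 1 lower with TN and 0 with SPH. Of 6 other ligands and receptors tested, 1 was called, lower with TK. These counts are to be read against the shares of all genes given above. JAK1 was called with COM (0.25 ± 0.074, edgeR adjusted p = 0.045) and DB (0.28 ± 0.074, adjusted p = 0.019), and the adaptor SHC1 lower with TK (-0.30 ± 0.071, adjusted p = 0.0053) and TN (-0.22 ± 0.069, adjusted p = 0.040). The IL-11 receptor chain IL11RA was called lower with TK (-0.64 ± 0.15, edgeR adjusted p = 0.0045), with 2.39 to 2.71 CPM in TK and 3.76 to 4.54 CPM in Control. It is the chain to which the ligand IL11, also called lower with TK, binds. ADAM17, which sheds IL6R from the cell surface, was called with DB (0.31 ± 0.077, adjusted p = 0.011). Of the 35 called values of the 14 genes named from these lists, 20 stayed called whichever 1 library was left out. The others included JAK1 with COM (24 of 27 fits lost), VEGFA with COM (15), HIF1A with TK (14), LCN2 with DB (7) and SHC1 with TN (7).

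**Figure D5:**
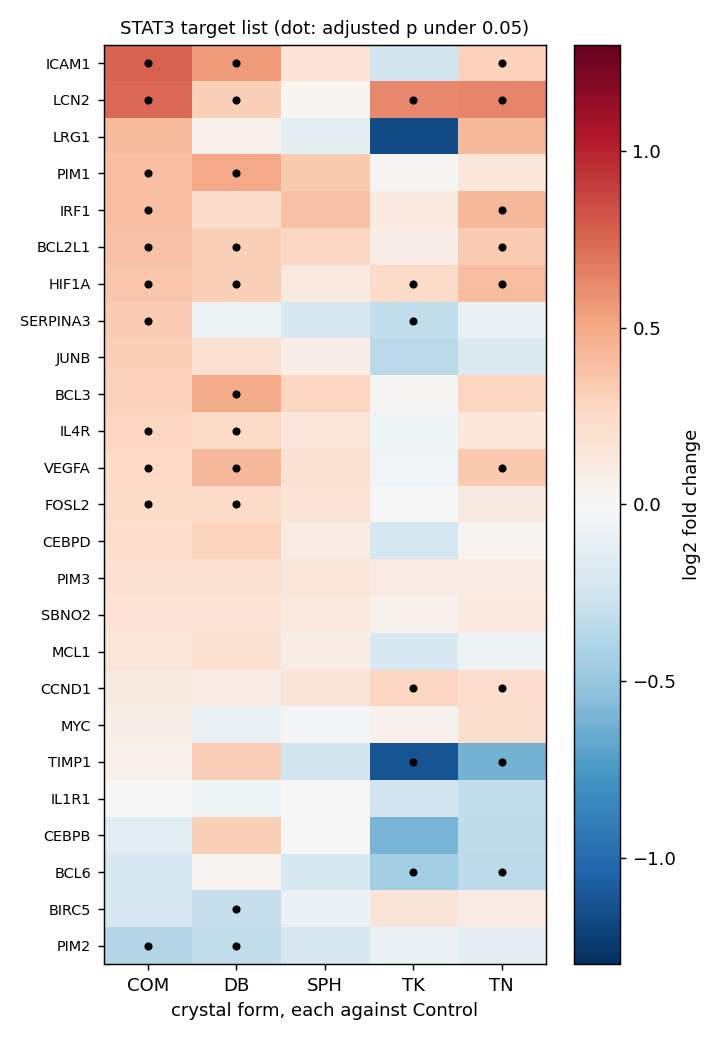
Log2 fold change of the 25 tested genes of the STAT3 target list with each crystal form against Control, ordered by the COM value, with a dot where the edgeR adjusted p was under 0.05. COM has 11 dots, DB 11, SPH 0, TK 6 and TN 9, and TIMP1 with TK is at -1.12.

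The genes whose level was most like that of LIF over the 27 libraries, after the mean of each set was taken out, were HBEGF, an EGF receptor ligand (Pearson r = 0.91), DAPP1, a phosphoinositide-binding adaptor (0.90), RNF14 (0.86), PLAU, the urokinase plasminogen activator (0.85), and KLF5, an epithelial transcription factor (0.85). Of the members, CLCF1 was nearest to LIF (0.79), and IL6R farthest (0.12). HBEGF had log2 fold changes of 0.87, 0.92, 0.57, 0.31 and 0.71 with COM, DB, SPH, TK and TN, the same order of forms as for LIF except that TN lay above SPH. Among the genes most like IL11, a comparison added after its values were seen, were FMNL1 (0.91), the metalloproteinases MMP10 (0.91) and MMP1 (0.90), and ADAM19 (0.90). MMP10 and MMP1 had log2 fold changes of 0.84 and 0.75 with COM, 1.04 and 1.06 with DB, -0.43 and -0.33 with SPH, -2.62 and -2.39 with TK and -1.09 and -1.04 with TN. These correlations share library, depth and treatment group and are descriptions. Among the members SOCS3 was nearest to IL11 (0.66), and IL6R had a negative r of -0.46. Of the 5 genes most like IL11, 3 were matched in the promoter table, of which 2, FMNL1 and ADAM19, hold the NF-kB consensus and 1, MMP10, the AP-1 motif, 67 to 61 bases before its start at chr11:102780679-102780705 on the minus strand, shown with 10 bases on either side and the motif in capitals.
MMP10: aacacatgcaTGAATCAtactgttggt
Of the 5 genes most like LIF, all in the table, 0 hold any of the 4 motifs in that window.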

How the data were processed

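Each library has a table of expected counts, TPM and FPKM by gene, made by the authors, per the file headers. Trim Galore, RSEM, Bowtie2 and build GRCh38 are named in the submitters' processing notes, with no version, annotation release or strand setting. The deposited expected counts were rounded to whole numbers and tested. The authors' TPM was used only for levels of markers and between genes, and beside CPM for IL6R and IL6ST. The members and lists were chosen with earlier results of these data known. With edgeR 4.0.16 (R 4.3.3), filterByExpr kept 16173 of 60683 genes, which were scaled by TMM and fitted over 27 libraries with group and serial-number set. A quasi-likelihood F-test with Benjamini-Hochberg adjustment called genes at an adjusted p under 0.05. CPM uses TMM library sizes. IL6 was tested by exact permutation within sets (scipy 1.17.1). Positions are GENCODE 29 on GRCh38. All members were named, and from each other list up to 4 called genes by the joint test and those called in at least 3 control comparisons, beside the 5 genes most like LIF. 1 gene among those most like IL11 is not reported here. DESeq2 1.42.0, other scalings, no filter, no set term, a letter block, single sets and left-out libraries were the alternatives. The test was checked on simulated data.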

Additional observations from a re-analysis of the deposited data

Results flagged for a closer look

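In 60 combinations of member and group, a single library was looked for that stood apart from the rest of its group by Dixon's criterion, which chance meets in about 1 of 20 groups. It was met in 2, both for LIF. SPH D, of set 3, had 690 CPM, against 602 to 611 CPM in the other SPH libraries. TK B had 480 CPM, against 437 to 444 CPM in the other TK libraries. Leaving out either changed no call for LIF against Control.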

How the results depend on the processing

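Library set and small groups set the limits. The counts of members called against Control (COM 3, DB 6, SPH 1, TK 2, TN 5) became 3 for DB and 1 for TN with no set term. With a replicate block by title letter in its place they were also 3 for DB and 1 for TN; same-letter libraries correlated over 0.1 in 27 of 42 pairs within a set (highest 0.446) and in 0 of 18 pairs across sets. Only the group mean was taken out before these correlations, so libraries of a set also share what the set brings. Libraries of different letters within a set were not compared. The correlations therefore cannot show whether letters pair samples, and letters were not used in the main fit. Within set 1 they were 2 for DB, 0 for SPH and 2 for TN, and within set 2 they were 0 for COM, 2 for DB, 4 for TK and 3 for TN. No filter gave 5 for COM, 4 for TK and 8 for the joint test (main 5), IL6 included, and DESeq2 5 for COM. Without TN B and TN C, a choice made after seeing the data, TK had 4, IL6 included. IL6 passed the filter in that fit only through TK and TN libraries where it is high, so its values there are not separate support. Its log2 fold change was 3.36 ± 0.73 with TK (edgeR adjusted p = 0.0028) and 4.09 ± 0.87 with TN (adjusted p = 0.0040). IL6 is also among the 4 for TK within set 2, whereas the main counts are of 9 members without IL6. Leaving out 1 library gave COM 2 to 5, DB 4 to 6, SPH 0 to 1, TK 2 to 3, TN 1 to 5, 5 to 6 for the joint test, 13 to 19 for the pairs of forms (main 16) and 3 to 5 for the bipyramids (main 4). The TN count was 1 without TN A and the SPH count 0 without SPH C. LCN2 with TK turned to -0.698 with no set term and -0.407 with the replicate block, and PTPRE with TN to 0.0416 within set 2; the cause was not tested. No called value of a member turned its sign in any of these fits. IL6, at 0 to 21 counts, is limited by depth.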
